A study of Macaca mulatta with 13 samples.

Results

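A set of 6 integrin chains, of 34628 genes in the deposited count matrix, was followed across the leukocytes of the rhesus macaque (Macaca mulatta) colon. They were chosen by gene symbol: ITGAE (ENSMMUG00000008556), which encodes CD103, ITGA1 (ENSMMUG00000001753), which encodes CD49a, ITGA4 (ENSMMUG00000000300), ITGB7 (ENSMMUG00000005245), ITGB1 (ENSMMUG00000017767) and ITGB2 (ENSMMUG00000000951). All 6 members were found in the matrix, with between 5490 (ITGB1) and 14526 (ITGA4) unique molecular identifiers (UMIs, each marking 1 captured RNA molecule) in the cells used here. The cells were viable and CD45-positive, CD45 being a surface protein of leukocytes, and came from thawed colon samples of macaques with or without a transplant, after which donor T cells can attack the recipient (graft-versus-host disease, GVHD). The sort also required no staining by the CD45 label that the protocol marks IVas.

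The labels name 13 libraries in 4 groups. Of these, 3 are GVHD libraries of host and donor cells together, 2 are donor fractions and 4 are host fractions of transplanted animals, parted by staining for the MHC molecule MAMU-A001, and 4 are healthy controls that received no transplant. The protocol states 4 colon samples from each cohort, so several libraries can share an animal. Age, strain and the treatment around the transplant are not known here. The barcodes carry numbers from 1 to 13, and no source ties a number to a label. The libraries are therefore named by barcode number below, and values by group are given in 1 place only, under a stated condition.

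Integrins are surface receptors made of 1 alpha and 1 beta chain, and neither chain reaches the surface without a partner. CD103 pairs with the ITGB7 chain and binds E-cadherin on epithelial cells, which holds T cells within the gut epithelium, and TGF-beta induces it. CD49a pairs with ITGB1 and binds collagens, and both alpha chains are widely used as markers of tissue-resident memory T cells. The ITGA4 chain pairs with ITGB7 to form the gut homing receptor for MAdCAM-1 and with ITGB1 to form a receptor for VCAM-1. ITGB2 is the shared beta chain of the leukocyte integrins and pairs with ITGAL, the alpha chain of LFA-1, among others.

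The matrix holds 57086 barcodes, of which the authors kept 20606 cells. Libraries 4 and 6 share 5323 barcodes, and all 39 kept cells of library 4 were also kept in library 6, so library 4 was left out, which leaves 20567 cells in 12 libraries. Kept cells per library ran from 29 to 2858, every kept cell had at least 1502 UMIs, and the median was 3412. Shared barcodes divide the libraries into a first set (1 to 7) and a second set (8 to 13). Other pairs within the first set share 6 to 55 barcodes, pairs within the second share 1 to 10, and pairs between the sets share at most 3. Between pairs of the 12 libraries, 53 kept barcodes were shared. What the sets stand for is not stated in the labels.

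Cells were sorted into classes by their UMIs. T cells had at least 3 UMIs of CD3D, CD3E and CD3G together (11234 cells, 54.6%), B cells had at least 2 UMIs of MS4A1 and CD79A together (3780 cells), and plasma cells, which secrete antibody, had at least 1% of their UMIs in JCHAIN (1241 cells). A further 2549 cells (12.4%) passed more than 1 gate and were left out, and 1763 passed none. Markers outside the gates followed the class names: TRAC stood at 1112 CPM (UMIs per 1000000 UMIs) in T cells, 6.41 in plasma cells and 35.3 in B cells, CD79B at 1414 CPM in B cells, and MZB1 at 2729 CPM in plasma cells. Levels below are UMIs summed over the cells of a class in a library, in CPM of all UMIs of those cells. They are not per gene length, so levels are compared between classes and libraries and not between genes.

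All 6 chains were found in T cells, and their levels differed between libraries by factors that depended on the chain. Over the 11 libraries with at least 20 T cells, ITGAE had the narrowest range, with 93.4 CPM at the lowest, a median of 126 and 186 at the highest. ITGA1 had one of the widest, from 20.6 to 284 CPM with a median of 112. ITGB7 ranged from 55.9 to 176 CPM (median 119.6), ITGA4 from 88.3 to 343 CPM (median 174), ITGB1 from 9.81 to 115 CPM (median 58.6) and ITGB2 from 49.1 to 222 CPM (median 79.7). The lowest values of ITGA4, ITGB1 and ITGB2 came from library 6, which had 34 T cells. In libraries with at least 50 T cells the lowest were 124, 22.2 and 49.8 CPM. The barcode sets differed for some chains. ITGB1 stood at 9.81 to 54.6 CPM in T cells of the first set and at 58.6 to 115 CPM in the second, and these ranges did not overlap. Without library 6 the ITGB1 range of the first set began at 22.2 CPM. ITGA1 stood at 20.6 to 117 CPM in the first set and at 107 to 284 CPM in the second, which overlapped in libraries 1, 8 and 9. Barcode set, animal and condition cannot be told apart here.

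The share of T cells with at least 1 UMI was 33.5% for ITGAE, 30.7% for ITGA1, 32.8% for ITGB7, 44.5% for ITGA4, 16.8% for ITGB1 and 26.9% for ITGB2. These shares depend on depth. With each cell thinned at random to 1500 UMIs they were 17.5% for ITGAE, 17.3% for ITGA1, 17.0% for ITGB7, 25.8% for ITGA4, 8.23% for ITGB1 and 14.1% for ITGB2. For comparison, 171 cells with epithelial genes (at least 3 UMIs of EPCAM and KRT18 together, and in none of the T, B and plasma cell gates) had a UMI of ITGA1 in 2.92%, of ITGB7 in 3.51% and of ITGA4 in 1.75% of cells, at a median of 2908 UMIs against 3102 in T cells. ITGAE was found in 13.5% of these cells, at 40.6 CPM against 131 CPM in T cells.

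**Figure D1:**
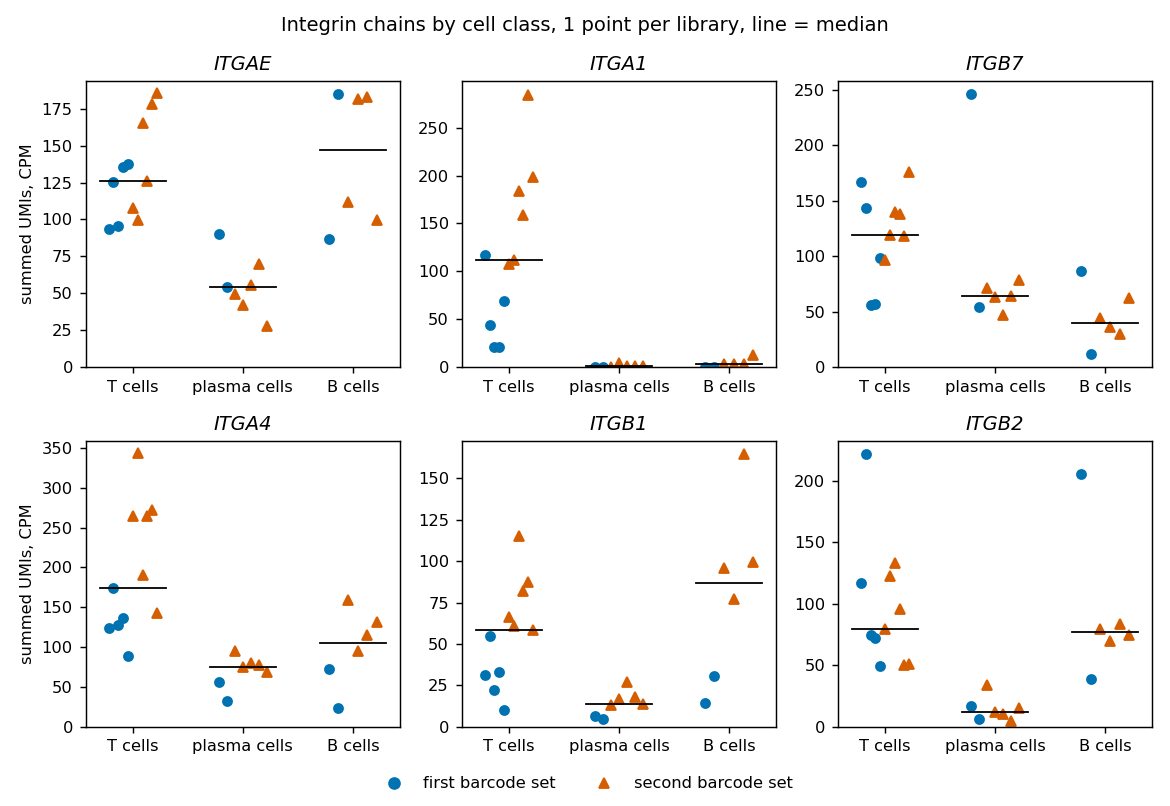
Level of each chain, in CPM of summed UMIs, in T, plasma and B cells, with 1 point per library (at least 20 cells of the class) and a line at the median. ITGA1 lies between 20.6 and 284 CPM in T cells and at or under 12.5 CPM in plasma and B cells, while the T and B cell points of ITGAE overlap.

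Set against B cells, T cells had far more ITGA1, more ITGB7 and more ITGA4, while no difference in ITGAE passed the test. The test was edgeR's quasi-likelihood test on summed counts with the library as a term, over 6 libraries (2, 3, 8, 9, 11 and 12) and 8894 genes, of which 36.6% passed an adjusted p (Benjamini-Hochberg) of 0.05 in either direction, 19.7% upwards and 16.9% downwards. Of the 6 chains, 3 passed, all upwards. The p-values here and below rest on how far the difference within a library varies between libraries. Libraries mix conditions and can share an animal, so these p-values may be too small.

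ITGA1 parted the classes most clearly. In T cells of these libraries it stood at 20.6 CPM at the lowest, 109.7 at the median and 284 at the highest, against 0, 2.92 and 12.5 CPM in B cells. Every T cell value lay above every B cell value, and the log2 fold change was 5.49 ± 0.23 (SE, adjusted p = 1.6e-08). The B cell level rests on 35 UMIs, and 0.767% of B cells had a UMI, against 2.92% of the epithelial-gate cells. B cells of library 12 held the highest value, on 2 UMIs. ITGB7, the partner of both ITGAE and ITGA4, stood at 55.9, 118.8 and 143 CPM (lowest, median, highest) in T cells, against 11.6, 39.9 and 86.5 CPM in B cells. T cells were higher in 6 of 6 libraries (log2 fold change 1.75 ± 0.22 SE, adjusted p = 7.1e-05). ITGA4 stood at 128, 264 and 343 CPM in T cells, against 23.7, 105 and 159 CPM in B cells, and was higher in T cells in 6 of 6 libraries (1.61 ± 0.21, adjusted p = 8.7e-05). The T and B cell ranges of ITGB7 and ITGA4 overlap between libraries, though not within one. With cells of more than 1 gate kept in both classes the ITGB7 fold change was -0.05 (adjusted p = 0.91). There the cells of both gates, 1406 over all libraries, count on both sides, and 10 libraries enter in place of 6. A smaller difference there cannot be parted from the shared cells.

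ITGAE, in contrast, overlapped fully between the classes. It stood at 95.4, 117 and 179 CPM (lowest, median, highest) in T cells, against 86.5, 147 and 185 CPM in B cells, and was higher in T cells in 3 of 6 libraries. The log2 fold change was -0.10 ± 0.22 (SE, adjusted p = 0.76). ITGB1 had a log2 fold change of -0.16 ± 0.25 (adjusted p = 0.65) and ITGB2 one of 0.49 ± 0.19 (adjusted p = 0.066), which passed without library 2 (0.56, adjusted p = 0.044) or 12 (0.59, adjusted p = 0.023). In library 2 ITGB2 was at 222 CPM in T cells, against 205 CPM in B cells, each the highest of its class. TMM scaling set the fold changes, and by library totals alone they shift by -0.16 for all genes, so that 1271 genes were called upwards and 2078 downwards in place of 1751 and 1501.

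Over all libraries, ITGAE in B cells stood at nearly the same level in cells with no UMI of CD3D, CD3E and CD3G. B cells without a CD3 UMI (2694 cells) had 167 CPM, against 169 CPM over all B cells, and of the T cell genes CD3D stood at 73.7 CPM, TRAC at 35.3, CD3G at 14.3 and CD3E at 3.23 CPM in B cells. By library the ITGAE values were 72.3 against 86.5 CPM (library 2), 188 against 185 (3), 107 against 112 (8), 187 against 182 (9) and 167 against 183 (11). TRAC was not part of this filter, and CCL5 stood at 74.3 CPM in these cells, against 74.6 CPM over all B cells. ITGAE was highest in dividing B cells: the 912 B cells with at least 5 UMIs of MKI67, TOP2A, TYMS and STMN1 together had 225 CPM, against 122 CPM in the 2158 with none. In each of the 4 libraries with at least 50 such cells the dividing B cells were higher, at 203 against 173 CPM in library 3, 189 against 87.8 in library 8, 267 against 117 in library 9 and 270 against 125 in library 11. ITGA4 went the other way in the same cells, at 30.2 CPM in dividing B cells against 131 CPM in those with no such UMI, and so did ITGB7, at 10.6 against 45.0 CPM. This subset was chosen after the ITGAE values were seen and was not tested. Against B cells with no division UMI the T cell log2 fold change of ITGAE was 0.04 (adjusted p = 0.90). In the RefSeq gene table (assembly T2T-MMU8v2.0, not the build of the files) P2RX5, an ATP receptor, overlaps ITGAE, and reads of overlapping genes can be shared, so ITGAE counts are uncertain to that extent. P2RX5 itself was at 0.399 CPM in T cells, against 2.36 CPM in B cells. HASPIN, a kinase gene of dividing cells that lies within an ITGAE intron in human, stood at 14.3 CPM in the dividing B cells, against 0.993 CPM in those with no division UMI. Its part in the ITGAE values was not tested.

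Plasma cells spend most of their RNA on antibody, and this sets what a level means in them. Genes with at least 1% of plasma cell UMIs, among them JCHAIN (5.67%), IGHA2 (11.7%) and IGKC (10.9%), fill much of their totals, which lowers the CPM of the other genes. TMM scaling, which compares the bulk of the genes, raised the plasma cells relative to the T cells by 1.40 on the log2 scale, and a fold change below 0 by less than this turns when the scaling is left out. Of 6892 genes tested in 7 libraries (2, 5, 8, 10, 11, 12 and 13), 56.5% passed in either direction, 31.1% upwards in T cells and 25.4% downwards. By totals alone 5746 genes were called upwards and 427 downwards, in place of 2144 and 1750. Of the 6 chains, 3 passed upwards and 1 downwards.

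ITGA1 was again the widest difference, at 20.6, 159 and 284 CPM (lowest, median, highest) in T cells, against 0, 0.904 and 4.23 CPM in plasma cells, with a log2 fold change of 5.50 ± 0.35 (SE, adjusted p = 3.1e-09). ITGB2 stood at 49.8, 79.7 and 222 CPM in T cells, against 4.44, 11.98 and 34.1 CPM in plasma cells, and its log2 fold change was 1.3 ± 0.30 (adjusted p = 0.0017). ITGB1 stood at 33.0, 66.4 and 115 CPM in T cells, against 4.36, 13.9 and 26.9 CPM in plasma cells (0.85 ± 0.20, adjusted p = 0.0019). For these 3 chains the T cells were higher under both scalings.

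ITGB7 went the other way by TMM. It stood at 57.3, 138 and 176 CPM in T cells, against 47.1, 63.8 and 246 CPM in plasma cells, with a log2 fold change of -0.74 ± 0.19 (adjusted p = 0.0041), lower in T cells in 7 of 7 libraries by TMM but reversed to 0.67 (adjusted p = 0.012), and higher in 6 of 7, by library totals alone. ITGAE (0.06 ± 0.19, adjusted p = 0.80) and ITGA4 (0.17 ± 0.16, adjusted p = 0.39) did not pass by TMM and were higher in T cells in 7 of 7 libraries by totals alone, at 1.47 and 1.59. Plasma cells of library 2 had the 246 CPM of ITGB7, against 79.0 CPM in the next library, and 84.4% of its 45 plasma cells had a UMI.

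Between plasma and B cells, ITGB7 was higher in plasma cells whichever way the libraries were scaled in the fits run. Plasma cells of libraries 2, 8, 11 and 12 had 246, 71.1, 47.1 and 63.8 CPM, against 86.5, 43.9, 29.5 and 62.3 CPM in B cells. Within each library the plasma cells were higher, and the log2 fold change was 2.25 ± 0.24 (SE, adjusted p = 9.6e-06). Of 6456 genes tested in these 4 libraries, 35.3% passed in either direction, 17.8% upwards and 17.4% downwards, and by totals alone 265 were called upwards and 5117 downwards in place of 1152 and 1126. ITGA4, the other chain of the gut homing receptor, had 55.7, 94.6, 80.0 and 77.1 CPM in plasma cells of the same libraries, against 72.1, 159, 115 and 131 CPM in B cells. It was higher by TMM (0.89 ± 0.22, adjusted p = 0.0061; 0.75 and adjusted p = 0.058 without library 11) and lower by totals alone (-0.64, adjusted p = 0.029), so its direction depends on the scaling. ITGAE likewise had 0.55 ± 0.24 by TMM (adjusted p = 0.098) and -0.95 by totals alone (adjusted p = 0.0093). ITGB1 was lower in plasma cells (-1.01 ± 0.27, adjusted p = 0.010), a call lost without library 8 (adjusted p = 0.11), and so was ITGB2 (-1.18 ± 0.42, adjusted p = 0.043), a call that was lost without library 2, 11 or 12 (adjusted p from 0.10 to 0.27). ITGA1 was too low in both classes to be tested. With cells of more than 1 gate kept, 4 genes passed in this comparison and none of the chains did, with ITGB7 at 0.57 (adjusted p = 0.18). There the cells of both gates, 1254 over all libraries, count on both sides, and 9 libraries enter in place of 4. A call lost there cannot be parted from the shared cells.

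Within T cells, those with a UMI of CD8A and none of CD4 (3658 cells) had more ITGAE and ITGA1 and less ITGB2 than those with a UMI of CD4 and none of CD8A (1936 cells). These differences were known from earlier results of these data when members, gates and tests were chosen. CD8A marks mainly cytotoxic T cells and CD4 mainly helper and regulatory T cells. A UMI of neither gene was found in 5310 T cells and of both in 330, and these were left out. The comparison held 9 libraries (1, 2, 3, 5, 8, 9, 11, 12 and 13) and 5357 genes, of which 9.02% passed in either direction, 4.13% upwards and 4.89% downwards. Of the 6 chains 3 passed upwards and 1 downwards. By library totals alone 143 genes were called upwards and 367 downwards, in place of 221 and 262.

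ITGAE stood at 118 CPM at the lowest, 138 at the median and 213 at the highest in CD8A T cells, against 48.2, 99.6 and 148 CPM in CD4 T cells. It was higher in CD8A T cells in 8 of 9 libraries, the exception being library 5 with 125 CPM in CD8A T cells, against 148 CPM in CD4 T cells. The log2 fold change was 0.65 ± 0.14 (SE, adjusted p = 0.0031), and with at least 2 UMIs of CD8A or CD4 required it was 0.48 (adjusted p = 0.20). ITGA1 stood at 21.9, 163 and 308 CPM in CD8A T cells, against 13.9, 91.2 and 175 CPM in CD4 T cells, and was higher in CD8A T cells in 9 of 9 libraries (0.72 ± 0.14, adjusted p = 0.0017). The ITGA1 ranges of the classes overlapped between libraries, and the difference stands within each library. Its lowest values in both classes came from the same libraries, 5 and 3, with 21.9 and 29.6 CPM in CD8A T cells, against 13.9 and 24.9 CPM in CD4 T cells.

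ITGB2 went the other way. It stood at 34.8, 57.8 and 210 CPM in CD8A T cells, against 74.0, 138 and 257 CPM in CD4 T cells, and was lower in CD8A T cells in 9 of 9 libraries (-1.06 ± 0.19, adjusted p = 0.00071). Myeloid cells hold much ITGB2 (295 CPM in the myeloid gate), and the 7 myeloid markers summed to 1378 CPM in CD8A T cells, against 8181 CPM in CD4 T cells, of library 1, to 1448 against 2489 CPM in library 5 and to 1728 against 5638 CPM in library 12. In the other 6 libraries the sum was at most 16.6 CPM in either class. Without libraries 1, 5 and 12, the ITGB2 fold change was -0.96 (adjusted p = 0.0011), that of ITGAE 0.65 (adjusted p = 0.0057) and that of ITGA1 0.63 (adjusted p = 0.0084).

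ITGB7 stood at 46.4, 128 and 214 CPM in CD8A T cells, against 46.3, 119.7 and 147 CPM in CD4 T cells. Its difference passed narrowly (0.36 ± 0.11, adjusted p = 0.045, higher in 7 of 9 libraries) and was lost without each of libraries 1, 2, 3, 5, 8, 12 and 13. ITGA4 (-0.25 ± 0.12, adjusted p = 0.24) and ITGB1 (-0.28 ± 0.14, adjusted p = 0.25) did not pass. In libraries 8, 9, 11 and 12 ITGA4 was at 201, 253, 217 and 247 CPM in CD8A T cells, against 405, 435, 303 and 406 CPM in CD4 T cells. In the other 5 libraries its values ran from 115 to 167 CPM in CD8A T cells, against 107 to 176 CPM in CD4 T cells. The calls of ITGAE, ITGA1 and ITGB2 held in the second barcode set alone and were lost in the first set alone, where the fold changes were 0.30, 0.39 and -0.53 (adjusted p = 0.65, 0.40 and 0.19). Whether the sets differ in these effects was not tested.

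**Figure D2:**
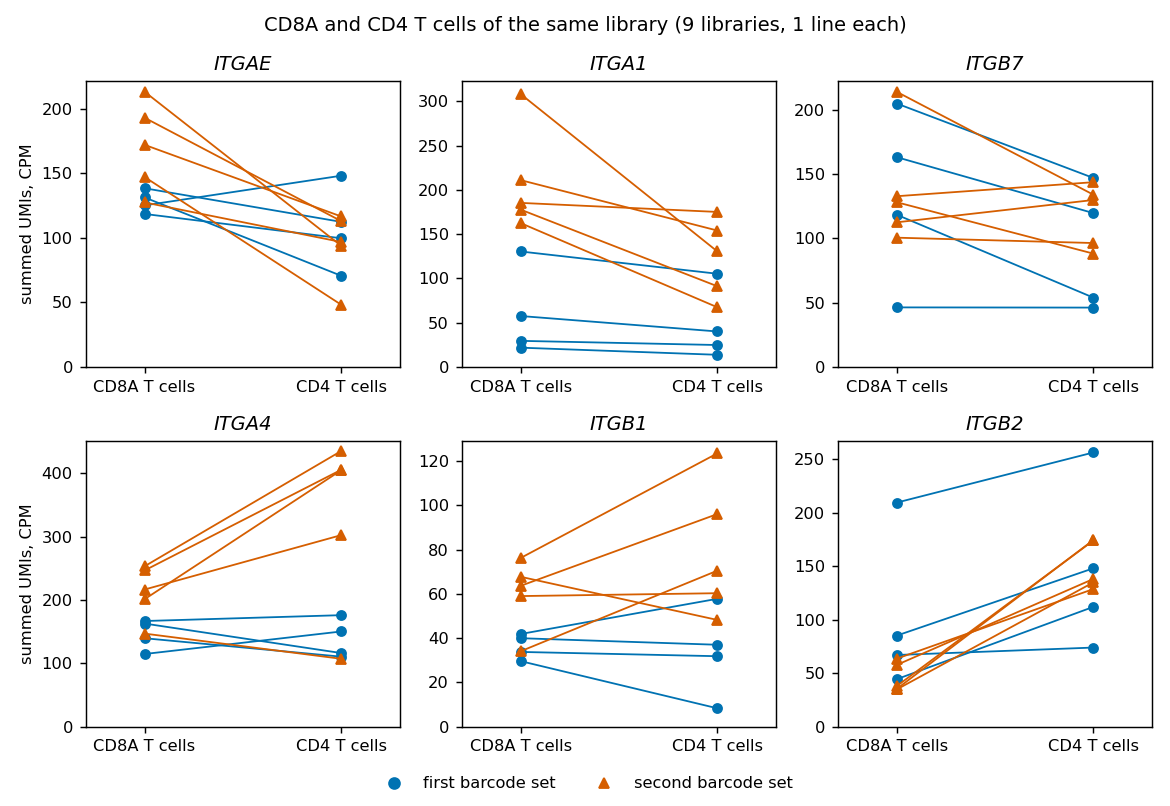
Level of each chain, in CPM of summed UMIs, in CD8A and CD4 T cells, with 1 line per library (9 libraries). The ITGA1 lines all fall towards CD4 T cells and the ITGB2 lines all climb, while ITGAE runs against the other libraries in 1 of the first barcode set (125 CPM in CD8A T cells, against 148 CPM in CD4 T cells).

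Known partner chains were found in the same T cell about as often as their separate frequencies give for 1 pair, somewhat more often for 2 pairs and less often for 1. The share of cells with both was set against the product of the separate shares within each library, in cells thinned to 1500 UMIs, and joined over libraries as a Mantel-Haenszel odds ratio, which is 1 for no association. Ratios of single libraries were computed with 0.5 added to each count. In T cells (11197 cells, 10 libraries), ITGAE and ITGB7 were found together in 369 cells, 3.30% where the product gives 2.94%. ITGB7 was found in 18.9% of T cells with ITGAE and in 16.6% of those without, and the odds ratio was 1.19, above 1 in 8 of 10 libraries. ITGA4 gave 0.98 with ITGB7 and 1.11 with ITGB1. ITGA1 with ITGB1, the collagen receptor, gave 0.73 and was above 1 in 1 of 10 libraries. This pair stood at 0.98 in the first barcode set alone and at 0.69 in the second. In CD8A T cells it gave 0.76, or 1.01 without library 12, and was above 1 in 5 of 9 libraries.

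Pairs not known to form ran from 0.82 for ITGA1 with ITGB2 to 1.16 for ITGA1 with ITGB7, within the range of the known pairs. The alpha chains ITGAE and ITGA1 gave 1.17 with each other, and were found together in 404 T cells (3.61%). These odds ratios describe sparse counts, in which 1 UMI or none was seen of most chains in most cells. They rose with depth, to 1.39 for ITGAE with ITGB7 and 0.93 for ITGA1 with ITGB1 in cells that were not thinned. In CD8A T cells ITGAE with ITGB7 gave 1.18 (167 cells with both) and in CD4 T cells 0.65 (29 cells with both), or 1.24 in CD4 T cells that were not thinned.

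In plasma and B cells few cells held both chains of a pair. ITGA4 with ITGB7 gave an odds ratio of 1.76 in plasma cells, on 19 of 1130 cells with both, and 2.0 in B cells, on 41 of 3718 cells. In B cells of the first barcode set (libraries 2 and 3) that pair was at 0.71, on 1 cell with both. Pairs not known to form reached such values too, with ITGA4 and ITGB2 at 5.82 in plasma cells on 9 cells and ITGAE and ITGB1 at 1.48 in B cells on 88 cells. ITGAE with ITGB7 gave 1.56 in plasma cells on 11 cells with both (0.91 without library 10), and 0.69 in B cells on 21 cells with both, where 20.2% of thinned B cells had a UMI of ITGAE and 4.26% one of ITGB7.

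**Figure D3:**
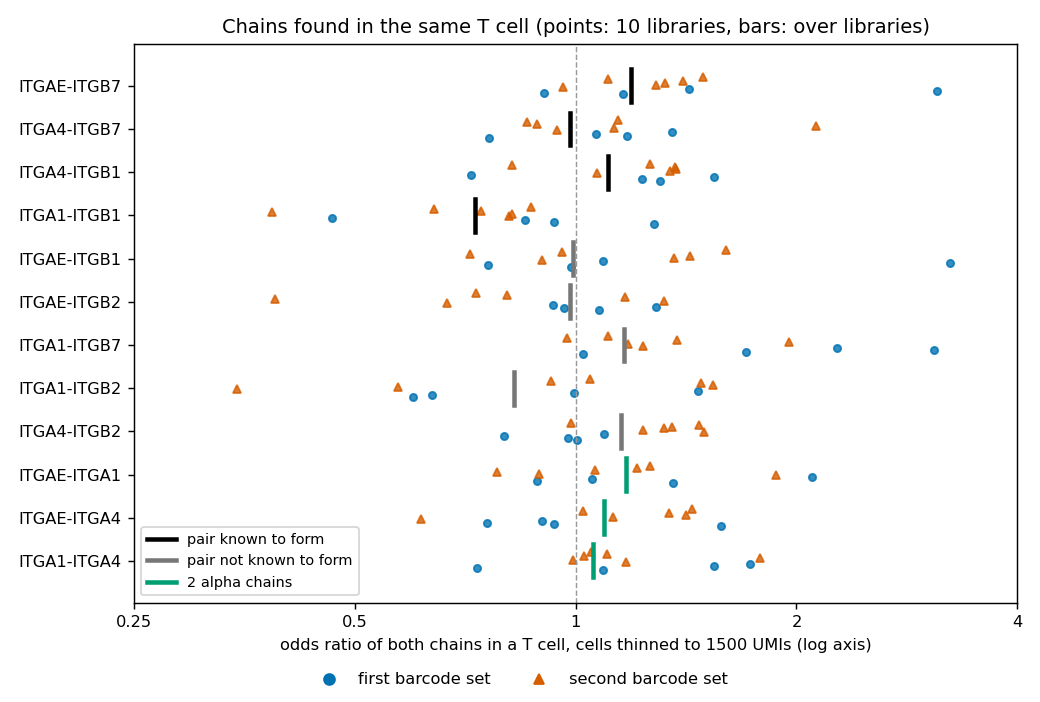
Odds ratio of finding both chains in a T cell thinned to 1500 UMIs, on a log axis, for 12 pairs, with points for 10 libraries (0.5 added to each count) and a bar for the ratio joined over libraries. The bars lie between 0.73 (ITGA1 with ITGB1) and 1.19 (ITGAE with ITGB7), and pairs known and not known to form overlap.

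CD8A T cells with a UMI of ITGAE differed from those without by a small set of genes, and no other integrin chain among the 6 passed. The test held 1495 cells with and 2086 without in 8 libraries, and 4114 genes, of which 2.19% passed in either direction, 0.705% upwards and 1.48% downwards. ITGAE itself is counted among the upward calls, and as the split used it, its call was fixed beforehand and is no finding. The 90 calls became 31 without library 2 and 50 without library 13. ITGA1 had a log2 fold change of 0.20 ± 0.08 (SE, adjusted p = 0.27, higher in 7 of 8 libraries), ITGB7 one of 0.20 ± 0.11 (adjusted p = 0.50), and ITGA4, ITGB1 and ITGB2 lay between -0.16 and 0.02. Among the genes higher with ITGAE was GZMB, a granzyme of cytotoxic granules, with a log2 fold change of 0.69 ± 0.11 (adjusted p = 0.0017), higher in 8 of 8 libraries. TIGIT, an inhibitory receptor (0.42 ± 0.07), DUSP4, a phosphatase of MAP kinases (0.67 ± 0.14), CD59, an inhibitor of complement (0.61 ± 0.14), RGS1 (0.24 ± 0.06) and RGS2 (0.44 ± 0.10), regulators of G-protein signals, were also higher. So were DTYMK (0.75), SMC2 (0.67) and RBBP8 (0.59), which serve DNA synthesis, chromosome condensation and DNA repair, and SPINK2 (0.44).

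Lower with ITGAE were CCR7 (-0.58 ± 0.12, adjusted p = 0.0095, lower in 6 of 8 libraries), a receptor that guides cells into lymph nodes, and the chemokine receptor CXCR4 (-0.36 ± 0.09). IRF1, GADD45B, TSC22D3 and FTH1 were lower by -0.29 to -0.19, and the ribosomal protein genes RPL34, RPS19, RPL32, RPS27A and RPS16 by -0.21 to -0.17. By library totals alone 35 genes were called upwards and 13 downwards, in place of 29 and 61, so the small downward calls depend on the scaling. A deeper cell is likelier to hold a UMI: the median was 3547 UMIs in cells with ITGAE, against 3142 in cells without, and when cells were split after thinning 14 genes passed. With all T cells split in the same way 353 genes passed.

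The split by ITGA1 called fewer genes. It held 1461 cells with and 1966 without in 7 libraries, and of 4343 genes 0.276% passed, 0.115% upwards and 0.161% downwards. The upward calls include ITGA1 itself, which the split used and which is no finding. The ITGA1 split again had lower CCR7 (-0.57 ± 0.11, adjusted p = 0.0055) and CXCR4 (-0.78 ± 0.13, adjusted p = 0.0018), and lower DUSP2 (-0.59 ± 0.11) and JUN (-0.29 ± 0.05), genes that respond to stimulation. TIMP1, an inhibitor of matrix proteases (0.49 ± 0.11), the phosphodiesterase gene PDE4D (0.44 ± 0.10) and the kinase gene STK17B (0.32 ± 0.07) were higher. ITGAE had 0.20 ± 0.08 (adjusted p = 0.56) and ITGB7 0.23 ± 0.10 (adjusted p = 0.56), each higher in 6 of 7 libraries, and ITGB1 was lower in 7 of 7 (-0.26 ± 0.12, adjusted p = 0.64). Leaving out library 9 gave 7 calls, library 12 gave 19 and library 1 gave 30, and by library totals alone 10 genes were called upwards and 7 downwards, in place of 5 and 7.

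**Figure D4:**
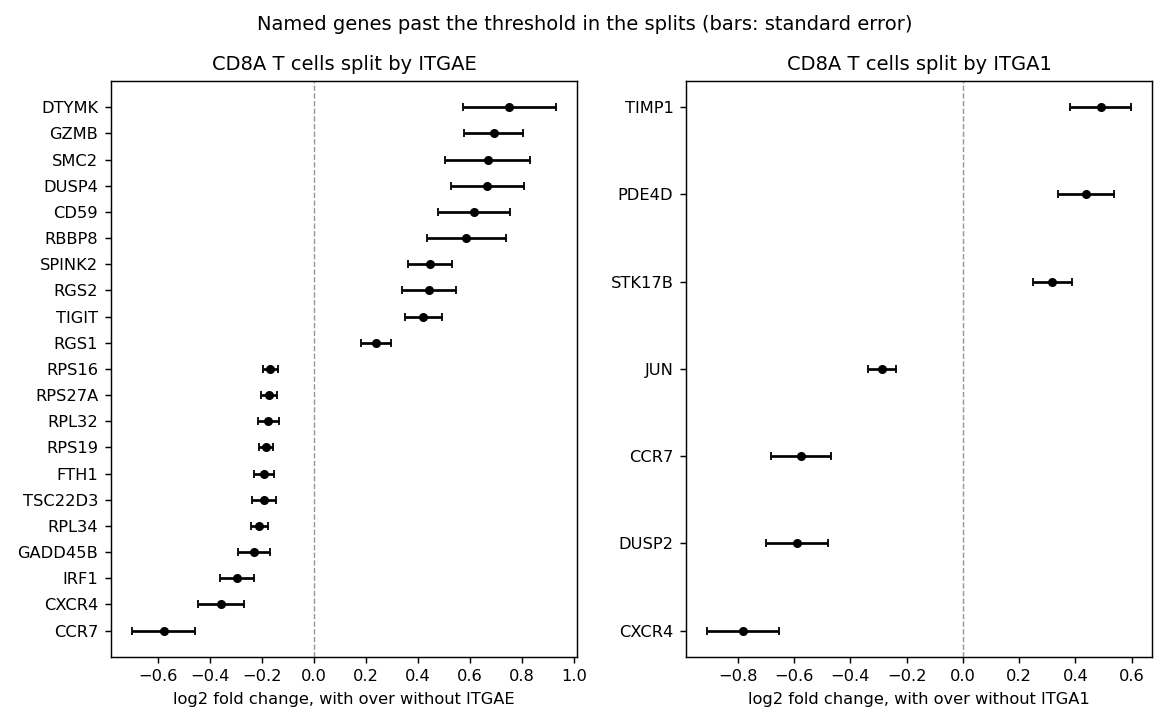
Log2 fold change with its standard error for the named genes that passed when CD8A T cells were split by a UMI of ITGAE (8 libraries) or ITGA1 (7 libraries), cells with over cells without. The most negative values shown are CCR7 at -0.58 for ITGAE and CXCR4 at -0.78 for ITGA1.

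The other genes of the integrin pathway were read from fixed lists. In T against B cells, where 19.7% of all genes passed upwards and 16.9% downwards, 3 of 4 tested of the other integrin chains passed upwards: ITGA5 (2.03), which pairs with ITGB1, ITGAL (1.90), which pairs with ITGB2, and ITGA6 (1.24). Of 17 tested genes of integrin activation 10 passed upwards and 2 downwards, with a median of 0.94 against 0.01 over all genes. The highest were the adaptors FYB1 (5.85) and SKAP1 (3.13), which link the T cell receptor to integrins, RASGRP1 (2.02), which activates Ras, and the GTPase gene RAP1B (1.58). Of 14 tested TGF-beta and residency factors 9 passed upwards and none downwards (median 1.27), led by the adhesion receptor gene CRTAM (5.10), PRDM1 (2.67), which encodes a repressor also known from plasma cells, TGFB1 (2.15), which encodes the cytokine that induces CD103, and the aryl hydrocarbon receptor gene AHR (2.05). SELPLG, a selectin ligand (2.29), was the 1 of 3 gut homing receptors that passed. Of 5 circulation genes LEF1 (6.59), a transcription factor of naive T cells, and S1PR1 (1.69), the receptor for leaving tissue, passed upwards.

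In T against plasma cells, where 31.1% of all genes passed upwards and 25.4% downwards, 12 of 15 integrin activation genes passed upwards and 1 downwards (median 1.26 against 0.11 over all genes), again led by FYB1 (5.81) and SKAP1 (5.39), with RASGRP2 (2.27), which activates Rap1, and PXN (2.03), an adaptor of adhesion sites. Of 14 residency factors 11 passed upwards and 1 downwards, with CRTAM at 7.18, RUNX1 at 4.05, RUNX3, a factor of CD8 T cells, at 3.6 and AHR at 3.28. The receptors for chemokines parted the classes. CCR10, which draws plasma cells to mucosa, stood at -8.61, SELPLG at -1.75 and GPR15, a colon homing receptor, at -1.17, a value smaller than the shift between the scalings, while CCR6 (3.19) and CCR7 (4.77) were higher in T cells. The 1 tested chain of the other integrins did not pass.

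In plasma against B cells, where 17.8% of all genes passed upwards and 17.4% downwards, both tested chains of the other integrins passed upwards, ITGA8 at 2.76 and ITGAL at 1.66. Of 10 integrin activation genes 2 passed upwards, SHARPIN (1.11) and RAP1B (0.74), both smaller than the shift of -1.49 between the scalings, and 2 downwards, RASGRP2 (-2.96) and TLN1 (-1.43), which encodes talin. The circulation genes CCR7 (-5.99) and KLF2 (-1.49) passed downwards, and so did 6 of 11 residency factors, among them RUNX1 (-3.25), SMAD3 (-2.64) and RUNX3 (-1.87), while PRDM1 was higher (4.64). CCR10 (7.75) and SELPLG (3.6) were higher and CCR6 (-3.31) lower in plasma cells.

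In CD8A against CD4 T cells, neither of the 2 tested other chains passed, and of 13 integrin activation genes 2 passed, both downwards: CYTH1 (-0.72), whose protein binds the ITGB2 tail, and RASGRP2 (-0.56), where 4.89% of all genes passed downwards. The median of this list was 0.04 against 0.02 over all genes. Of 12 residency factors 4 passed upwards and 1 downwards, where 4.13% of all genes passed upwards and 4.89% downwards. CRTAM (4.65), RUNX3 (0.97) and TGFB1 (0.64) were higher in CD8A T cells and RUNX1 (-0.90) was lower. Of 4 circulation genes LEF1 (-1.42) and CCR7 (-0.72) were lower, and none of 3 gut homing receptors passed. In the ITGAE split no gene of the other integrin chains, integrin activation and gut homing receptors passed, and 1 of 9 residency factors did, RGS1. It passed upwards, as did 0.705% of all genes of that split. The circulation gene CCR7 was lower in both splits, and in the ITGA1 split no gene of the other 4 lists passed.

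Genes were also ranked by how closely their T cell level followed that of ITGAE or ITGA1 across libraries. Over 10 libraries with at least 100 T cells, on log2(CPM + 10) centred within each barcode set, the genes with the highest Pearson correlation to ITGAE among 4337 were CCL5 (r = 0.95), which encodes a chemokine of cytotoxic cells, SNRPB2 (0.95), RHOG (0.93), GNLY (0.93), which encodes a protein of cytotoxic granules, and KLRD1 (0.92), which encodes CD94. In the same libraries CD8A T cells made up from 23.2% to 91.0% of CD8A and CD4 T cells, and their part in these correlations was not tested. For ITGA1 they were PELO (0.95), SMOX (0.93), PPP2R2B (0.92), CLSTN1 (0.92) and SDHAF4 (0.92). PELO lies within ITGA1 in the RefSeq gene table, and reads of the pair may not be parted by the counting. PELO stood at 102 CPM in T cells, 38.1 in plasma cells and 11.3 in B cells, and in CD8A against CD4 T cells it did not pass (0.42, adjusted p = 0.21). Among the 6 chains, ITGA1 correlated with ITGB7 at 0.79, and ITGAE with ITGA1 at 0.27, with ITGB7 at 0.15 and with ITGA4 at -0.51. These values describe 10 libraries that share animals and conditions.

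If the barcode numbers follow the order of the labels, which no source states, libraries 10, 12 and 13 are the combined GVHD libraries, 2 and 5 the donor fractions, 1, 6 and 7 the host fractions and 3, 8, 9 and 11 the healthy controls. Of the measured values, 2 bear on that order: libraries 4 and 6, which share most of their barcodes, stand at the titles NHP_43_Host and NHP_43B_Host, and the barcode sets change where the titles pass from NHP_40 to NHP_45 to NHP_60 to NHP_65. Neither bears on which numbers of the second set are combined libraries and which are healthy. The values in this paragraph and the next hold under that order only and carry no test. The donor and host fractions all lie in the first barcode set, with 1 healthy library, and the combined libraries all lie in the second. Between a fraction and the combined libraries, group and barcode set therefore cannot be told apart. Within the first set only 1 host and 1 healthy library have at least 50 T cells.

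Under that order, T cells of the combined libraries had 166, 179 and 186 CPM of ITGAE (libraries 10, 12 and 13), those of the donor fractions 126 and 135 CPM (2 and 5), those of host library 1 had 93.4 CPM, and those of the healthy libraries had 95.4, 108, 99.8 and 126 CPM (3, 8, 9 and 11). The combined and healthy ranges did not overlap. ITGA1 stood at 184, 284 and 199 CPM in the combined libraries, at 44.1 and 20.6 CPM in the donor fractions, at 117 CPM in host library 1, and at 20.6, 107, 112 and 159 CPM in the healthy libraries, and here too the combined range lay above the healthy one. The same holds for 11.2% of 4453 genes, with 2.87% the other way round, or for 18.2% of 4556 genes in the second barcode set alone, with 7.59% the other way round, so it is not particular to these chains. In CD8A T cells (libraries with at least 50, which leaves out healthy library 3 with 23 cells, at 118 CPM of ITGAE and 29.6 CPM of ITGA1), ITGAE ran from 193 to 213 CPM in the combined libraries, against 127 to 172 CPM in the healthy ones, and ITGA1 from 193 to 308 CPM, against 163 to 185 CPM, where 17.1% of 4469 genes did the same and 4.86% the reverse. In CD4 T cells both chains overlapped, while ITGB2 stood at 175 and 174 CPM in combined libraries 12 and 13, against 112 to 138 CPM in the 4 healthy ones, where 11.8% of 4512 genes lay higher in this way and 3.77% lower. In CD4 T cells of library 12 the 7 myeloid markers summed to 5638 CPM. The sum was 13.4 CPM in library 13 and at most 16.6 CPM in the healthy ones. The part of this RNA in the ITGB2 values was not tested. Library 13 had 54 CD4 T cells, and combined library 10 had 11 and was left out. CD8A T cells made up 82.3% to 91.0% of CD8A and CD4 T cells in the combined libraries, against 23.2% to 69.0% in the healthy ones, and their part in the values over all T cells was not tested. ITGB7, ITGA4, ITGB1 and ITGB2 overlapped between combined and healthy libraries in T cells and in CD8A T cells. Host libraries 6 and 7 had 34 and 3 T cells and give no value here.

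**Figure D5:**
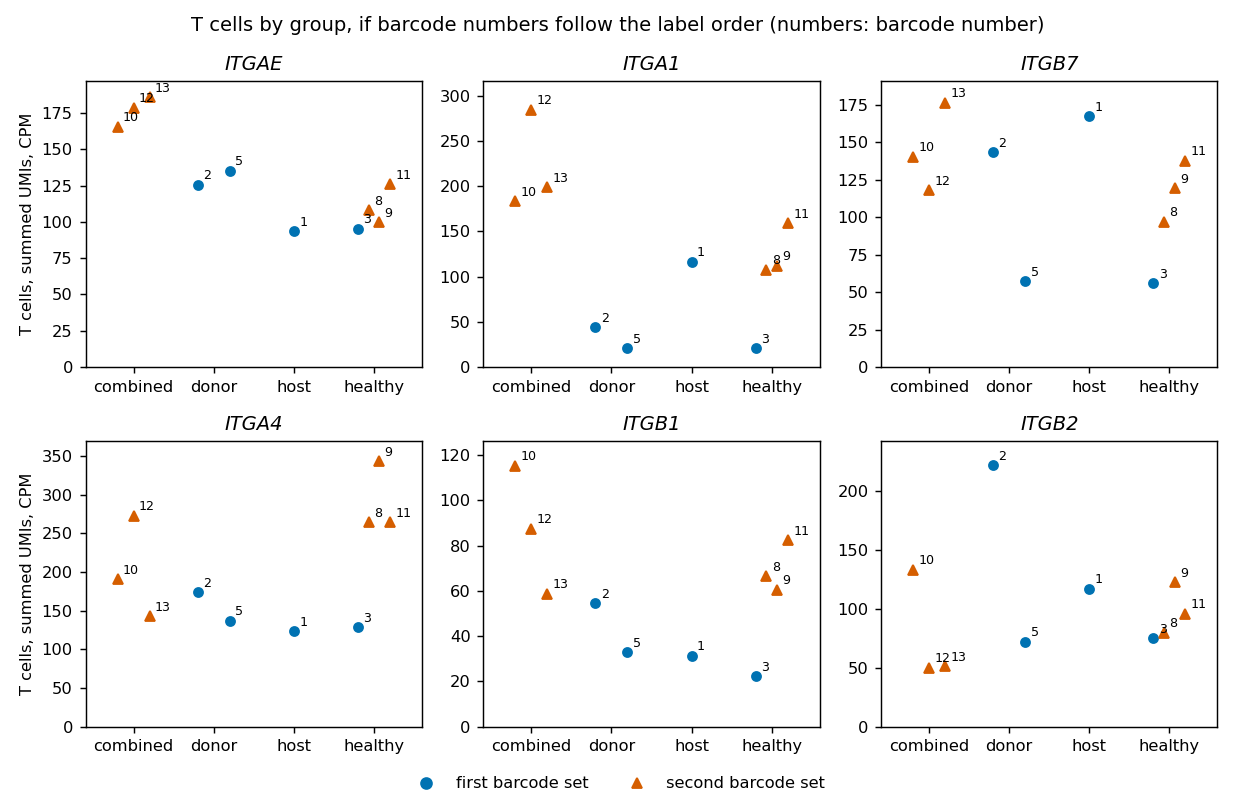
Level of each chain in T cells, in CPM of summed UMIs, by the group that label order would give each barcode number, which no source states, for 10 libraries with at least 50 T cells. The ITGAE points of the combined libraries (166 to 186 CPM) and their ITGA1 points (184 to 284 CPM) lie above those of the healthy libraries, and donor and host points come from the first barcode set alone.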

How the data were processed

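The deposited raw matrix holds UMI counts per gene and barcode, made by the authors (Cell Ranger 3.1.0, per the submitters' processing notes, which also name Seurat 3.1). The genome build was not given in the sources used here, nor were annotation and strand setting. A second matrix deposited by the authors, in natural log of corrected counts, was not used beyond its list of kept cells. Symbols came from the file (23811) and a gene table (695 more). Doublets were not called, and cells of more than 1 gate were left out.

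Raw UMIs were summed per library and class (at least 20 cells) and tested with edgeR 4.0.16 (R 4.3.3; TMM, filterByExpr, library as a term, quasi-likelihood, Benjamini-Hochberg over all genes, 0.05), with DESeq2 1.42.0 as an alternative. The code was tested on simulated counts. Named genes were all members, up to 4 called genes per list by size, up to 10 per direction in the splits that moved alike in every library at a mean of at least 20 CPM, and the 5 most correlated genes. Libraries higher were counted on TMM-scaled CPM, a change made after first values were seen. The cut of 50 dividing B cells, the dividing subset, the epithelial and myeloid gates, the barcode sets and scaling by totals were also chosen after seeing the data. A gene that met the rule is not reported here. Values after ± are standard errors of the edgeR fits over libraries. Members, lists, gates and tests were chosen with earlier results of these data known, among them the CD8A and CD4 differences of ITGAE, ITGA1 and ITGB2.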

Additional observations from a re-analysis of the deposited data

Results flagged for a closer look

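Within a cell class, 6 of 24 sets of library values of a chain held a library far from the others, by the gap to its nearest neighbour over the whole range (Dixon's test at 95%). Chance flags about 1 in 20 such sets, and the libraries mix conditions. ITGB2 was flagged 3 times. It stood at 210 CPM in CD8A T cells of library 2, where the next of 10 libraries had 88.5 CPM, and at 205 CPM in B cells of library 2, where the next of 6 had 83.2 CPM. In plasma cells of library 8 it stood at 34.1 CPM, with 17.1 CPM in the next of 7. ITGB7, the shared chain of the gut homing receptor and CD103, stood at 246 CPM in plasma cells of library 2, and the next of 7 libraries had 79.0 CPM. ITGA1 stood at 12.5 CPM in B cells of library 12, with 3.59 CPM in the next of 6, and at 4.23 CPM in plasma cells of library 10, with 1.496 CPM in the next of 7. The epithelial-gate cells had 10.2 CPM of ITGA1. Library 2 stood apart for ITGB2 in 2 classes and for ITGB7 in 1.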

How the results depend on the processing

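The differences that kept their direction and their side of the threshold under every alternative run were the higher ITGA1 and ITGA4 of T against B cells and the higher ITGA1, ITGB1 and ITGB2 of T against plasma cells. Depth limits the shares and odds ratios of single cells, and 4 to 9 libraries limit the fits. The fits pair the classes of a library by a library block. With no replicate block, 1409 genes passed in T against B cells, 2509 in T against plasma cells, 34 in CD8A against CD4 T cells and 1 in each of the ITGAE and ITGA1 splits. The gene that made each split was among the genes tested, so the 1 call may be that gene. The paired calls lost without the block were ITGAE (0.64, adjusted p = 0.26), ITGA1 (0.79), ITGB7 (0.40) and ITGB2 (-0.96) of CD8A against CD4 T cells, and ITGB1 (-0.98) and ITGB2 (-1.29) of plasma against B cells.

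Scaling by library totals alone, chosen after seeing the data like the 2 alternatives marked below, gave 6173 calls in T against plasma cells, 5382 in plasma against B cells and 48 in the ITGAE split. It reversed ITGB7 (0.67) and called ITGAE (1.47) and ITGA4 (1.59) in T against plasma cells, reversed ITGAE (-0.95) and ITGA4 (-0.64) in plasma against B cells and ITGB2 (0.011) in the ITGAE split, and lost ITGB7 of CD8A against CD4 T cells (0.28). RLE size factors lost ITGB7 of CD8A against CD4 T cells (0.34) and ITGB2 of plasma against B cells (-1.13), as did leaving out the genes of at least 1% of plasma UMIs for ITGB2 (-1.11). DESeq2 gave 7 calls in the ITGA1 split and lost ITGB7 of CD8A against CD4 T cells (0.34). With no filter on low counts 765, 161 and 53 genes passed in CD8A against CD4 T cells and the ITGAE and ITGA1 splits, ITGB7 was lost in the first (0.37) and ITGA4 reversed in the second (-0.0087).

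The first barcode set alone gave 663 calls in T against B cells, 1711 in T against plasma cells, 181 in CD8A against CD4 T cells, 6 in the ITGAE split and 28 in the ITGA1 split. There ITGB7 (1.69, adjusted p = 0.051) and ITGB1 (0.62) changed in T against B cells, ITGAE (-0.32) in T against plasma cells, and ITGAE (0.30), ITGA1 (0.39), ITGB7 (0.40) and ITGB2 (-0.53) in CD8A against CD4 T cells. In the splits it reversed ITGB7 (-0.11), ITGA4 (-0.052), ITGB1 (0.091) and ITGB2 (0.069) for ITGAE and ITGA4 (-0.185) for ITGA1. The second set alone gave 27 calls in the ITGA1 split, reversed ITGB2 there (0.19) and ITGA4 in T against plasma cells (-0.076), lost ITGB2 of plasma against B cells (-0.67) and ITGB7 of CD8A against CD4 T cells (0.27), and called ITGA4 there (-0.48, adjusted p = 0.043). At least 50 cells per class called ITGB2 in T against B cells (0.59), reversed ITGA4 in T against plasma cells (-0.076) and lost ITGB2 of plasma against B cells (-0.18) and ITGB7 of CD8A against CD4 T cells (0.32). Some of these are the same fit under another name. At 50 cells, T against plasma cells is the second set alone, T against B cells leaves out library 12, and CD8A against CD4 T cells leaves out library 3. The second set alone in plasma against B cells leaves out library 2.

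Keeping cells of more than 1 gate counts cells of both gates on both sides of a comparison and lets more libraries in. Calls lost under it cannot be parted from the shared cells. It left 4 calls in plasma against B cells, where ITGB7 (0.57), ITGA4 (0.49), ITGB1 (-0.45) and ITGB2 (-0.15) were lost. It reversed ITGB7 (-0.049) and ITGB1 (0.32) and called ITGB2 (0.71) in T against B cells, and reversed ITGAE (-0.038) and ITGA4 (-0.014) in T against plasma cells. Stricter gates called ITGB2 in T against B cells (0.53) and lost ITGB1 of plasma against B cells (-0.89). B cells with no division UMI, an added alternative, reversed ITGAE (0.044) and ITGB1 (0.12) of T against B cells. At least 2 UMIs of CD8A or CD4 gave 125 calls and lost ITGAE (0.48, adjusted p = 0.20) and ITGB7 (0.56). Leaving out libraries 1, 5 and 12, also added, lost ITGB7 (0.27). The ITGAE split after thinning gave 14 calls. The splits of all T cells gave 353 and 195 calls for ITGAE and ITGA1, and reversed ITGA4 (-0.022 and -0.070).

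With each library left out in turn, calls ran from 1428 (without library 8) to 2348 in plasma against B cells, from 31 (without library 2) to 107 in the ITGAE split, with 50 without library 13, and from 7 (without library 9) to 30 (without library 1) in the ITGA1 split, with 19 without library 12. Fold changes ran from -0.26 to 0.044 for ITGAE, -0.37 to 0.031 for ITGB1 and 0.33 to 0.59 for ITGB2 in T against B cells, and from -0.14 to 0.16 for ITGAE in T against plasma cells. In plasma against B cells they ran from 0.75 to 1.04 for ITGA4, -1.09 to -0.82 for ITGB1 and -2.01 to -0.67 for ITGB2, and for ITGB7 in CD8A against CD4 T cells from 0.29 to 0.42. In the splits they ran from -0.028 to 0.065 for ITGA4 and -0.091 to 0.041 for ITGB2 (ITGAE), and -0.31 to 0.069 for ITGB2 (ITGA1).

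Thinned to 1500 UMIs, the share of cells with a UMI was 17.5% for ITGAE, 17.0% for ITGB7, 25.8% for ITGA4, 8.23% for ITGB1 and 14.1% for ITGB2 in T cells, 20.2% for ITGAE and 9.497% for ITGB1 in B cells, and 6.45% for ITGAE, 0.161% for ITGA1, 12.2% for ITGB7, 9.83% for ITGA4, 2.18% for ITGB1 and 2.34% for ITGB2 in plasma cells. The odds ratio of ITGA1 with ITGB1 in CD8A T cells was 1.68 in the first set alone, and that of ITGAE with ITGB7 in CD4 T cells 1.24 at full depth. Under the order of the labels, the combined median of ITGAE lay above the healthy one by 54.0 CPM in CD8A and 5.15 CPM in CD4 T cells. That of ITGB2 lay above it by 42.5 CPM in CD4 T cells. Over all T cells the ITGB2 medians were 51.2 CPM in the combined and 87.7 CPM in the healthy libraries. With libraries left out in turn, combined minus healthy over all T cells ran from -44.6 to 4.46 CPM for ITGB2. Plasma against B cells had 1 library of the first set, so that set alone could not be fitted.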

Other observations

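Cells outside the lymphocyte gates held the chains in other proportions. The 192 cells of the myeloid gate (at least 3 UMIs of LYZ, CD14, CSF1R, CD68 and AIF1 together, in no other gate) had 295 CPM of ITGB2, 168 CPM of ITGA4, 165 CPM of ITGB1, 63.5 CPM of ITGB7, 26.3 CPM of ITGAE and 4.65 CPM of ITGA1. The 171 cells of the epithelial gate had 66.1 CPM of ITGB1, 40.6 CPM of ITGAE, 22.02 CPM of ITGB2, 10.2 CPM of ITGA1, 10.2 CPM of ITGB7 and 5.08 CPM of ITGA4. Both gates were set after the data were seen. The values are pooled over all libraries, of which 4 had at least 20 myeloid-gate cells and 2 at least 20 epithelial-gate cells.

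CERKL, a ceramide kinase-like gene that overlaps ITGA4 in the RefSeq gene table, stood at 71.6 CPM in T cells, 16.5 CPM in plasma cells and 26.7 CPM in B cells, and was higher in T than in B cells by 1.58 on the log2 scale, where ITGA4 was higher by 1.61. SLX9 overlaps ITGB2 in the same table, and its older symbol FAM207A stood at 21.2 CPM in T cells, 11.9 CPM in plasma cells and 33.6 CPM in B cells.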
